A study of Mus musculus with 16 samples.

Results

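The genes described here are 35 protein-coding genes whose symbols begin with Srsf, Rbm, Prpf, Luc7l, Hnrnp, Snrp, Snrnp, Sf3, U2af, Ddx or Dhx. They were all such rows among the 2438 genes of the deposited table, and the GENCODE M21 annotation holds 178 protein-coding genes that meet the same name rule. The table listed only genes that the authors had called at an adjusted p under 0.05 between the groups below, so being a member already means having differed between these libraries. The direction and size of each member's change are therefore given as a description of the listed genes, and the tests beside them are checks of error on the same libraries.

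The 16 libraries came from mice with conditional alleles of Ephb4, which encodes a receptor tyrosine kinase. In 9 libraries the label gives the genotype as fl/fl (called flox here), and in 7 as KO, with the gene removed in intestinal epithelial cells. All mice were 8 weeks old when they began a high fat diet that lasted 19 weeks, and the diet is thus shared by both groups. The labels name the sample as duodenal epithelium, while the design text speaks of proximal small intestine tissue, and neither names the recombinase line or the sex. The labels do not say that each library is a separate mouse, so p-values measure the spread between these libraries.

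Splicing removes introns from precursor messenger RNA in the spliceosome, which assembles from small nuclear ribonucleoprotein particles (snRNPs) named U1, U2, U4, U5 and U6 after their RNAs. SR proteins and heterogeneous nuclear ribonucleoproteins (hnRNPs) bind the precursor and steer which exons are kept. DEAD-box and DEAH-box helicases (symbols Ddx and Dhx) use ATP to rearrange RNA and its proteins at each step, and others of these families act in ribosome assembly, translation and decay. Many splicing factor genes carry introns or poison exons whose inclusion sends the transcript to nonsense-mediated decay, which counts per gene do not separate.

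Of the 35 members, 28 were higher and 7 lower in KO than in flox in the authors' deposited table. The higher genes included all 5 listed Srsf, all 10 Rbm, both Luc7l, both Prpf, both Snrp and both Sf3 genes and the single Snrnp gene. The lower genes were the helicases Ddx23, Ddx54, Ddx6 and Dhx38 and the hnRNP genes Hnrnpf, Hnrnpul1 and Hnrnpul2. The changes were small, with folds (ratios of group means of normalised counts) from 1.16 to 1.83, median 1.29, among the higher genes and from 1.14 to 1.28 among the lower ones. By the authors' deposited table no member changed by as much as 1 on the log2 scale, while 372 of all 1150 higher and 65 of all 1288 lower genes did. The authors called 14.8% of the 16488 genes they adjusted over, 6.97% higher and 7.81% lower, and 19.7% of the annotated genes meeting the name rule were listed. A gene outside the table either was not tested by the authors or missed their threshold, and nothing particular to these families follows from those shares.

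Of the 11 symbol families, Srsf had 5 of 11 annotated genes listed, Luc7l 2 of 3, Hnrnp 5 of 20, Sf3 2 of 9, Rbm 10 of 47 and Snrp 2 of 12. Prpf had 2 of 13 listed, Snrnp 1 of 7, Ddx 5 of 37 and Dhx 1 of 16, and none of the 3 U2af genes was listed.

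Promoters are shown for 4 higher genes, 3 of them among the members whose libraries separated the groups completely, and for Hnrnpul1, one of the lower genes. Each is the 250 bases before the RefSeq start on GRCm38.p6, written 5′ to 3′ on the gene's strand. Capitals mark letter matches, on either strand, to the 7 motifs named after the sequences.
Rbm39 (chr2:156180239-156180488, minus strand): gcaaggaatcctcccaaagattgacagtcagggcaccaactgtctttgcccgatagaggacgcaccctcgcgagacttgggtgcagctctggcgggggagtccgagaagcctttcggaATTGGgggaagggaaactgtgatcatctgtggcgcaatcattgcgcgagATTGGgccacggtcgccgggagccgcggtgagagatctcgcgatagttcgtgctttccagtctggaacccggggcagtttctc
Luc7l3 (chr11:94321964-94322213, minus strand): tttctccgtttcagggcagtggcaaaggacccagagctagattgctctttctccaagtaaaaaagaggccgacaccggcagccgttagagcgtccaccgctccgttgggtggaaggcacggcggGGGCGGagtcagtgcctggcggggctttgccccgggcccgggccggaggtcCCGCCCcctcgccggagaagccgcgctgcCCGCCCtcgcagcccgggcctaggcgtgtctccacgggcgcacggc
Prpf39 (chr12:65036084-65036333, plus strand): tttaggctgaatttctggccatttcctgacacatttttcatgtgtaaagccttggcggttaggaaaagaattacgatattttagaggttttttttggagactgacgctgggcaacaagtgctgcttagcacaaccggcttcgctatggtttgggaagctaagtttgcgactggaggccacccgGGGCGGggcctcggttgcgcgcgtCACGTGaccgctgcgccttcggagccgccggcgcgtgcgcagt
Srsf1 (chr11:88047123-88047372, plus strand): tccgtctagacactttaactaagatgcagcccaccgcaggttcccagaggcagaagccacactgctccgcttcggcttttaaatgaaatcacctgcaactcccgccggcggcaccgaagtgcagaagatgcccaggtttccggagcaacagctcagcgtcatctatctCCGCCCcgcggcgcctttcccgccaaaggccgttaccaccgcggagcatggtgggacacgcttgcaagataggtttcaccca
Hnrnpul1 (chr7:25754760-25755009, minus strand): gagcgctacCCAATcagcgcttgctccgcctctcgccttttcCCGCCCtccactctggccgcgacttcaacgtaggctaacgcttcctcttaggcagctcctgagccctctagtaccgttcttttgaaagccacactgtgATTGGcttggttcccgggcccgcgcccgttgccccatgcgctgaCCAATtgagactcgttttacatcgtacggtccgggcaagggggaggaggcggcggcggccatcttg

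The Luc7l3 and Srsf1 windows hold GC boxes, the Prpf39 window a GC box and an E-box, the Rbm39 window CCAAT boxes on the opposite strand, and the Hnrnpul1 window both GC and CCAAT boxes. RefSeq windows were found for 30 of the 35 members, 27 higher and 3 lower in KO. The GC box, searched as GGGCGG, stood in 20 of these 30 (66.7%) and in 42.7% of 17492 windows of the same length before protein-coding genes. The CCAAT box, searched by those letters, stood in 15 member windows (50%) against 36.5% of all. The ETS core, CCGGAAG, stood in 7 windows (23.3%) against 9.15%. A TATA box, TATAAA, stood in 5 (16.7%) against 12.4%. The E-box, CACGTG, stood in 2 windows (6.67%) against 6.65%. The cyclic AMP response element, TGACGTCA, stood in 0 against 1.98%. The palindromic NRF1 motif stood in 0 against 1.06%. Members had a median of 19 CpG dinucleotides per window, against 10 over all windows. A GC box stood in 18 of the 27 windows of higher genes and in 2 of the 3 of lower genes. These are letter matches only.

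Ephb4 checked the labels. Its level ran from 103 to 354 normalised counts in flox (median 162) and from 23.3 to 84.7 in KO (median 28.5), with no overlap. Ephb4 was lower in KO by a log2 difference of -2.51. The exact permutation test over 11440 splits gave a two-sided p of 8.74e-05, the smallest it can give. Normalised counts here are read counts divided by 1 size factor per library. The libraries held 3592468 to 5316273 reads in the listed genes, and their total depth is unknown.

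The groups were completely separate for 5 members, 4 of them higher (Rbm39, Luc7l3, Prpf39, Prpf4b) and 1 lower (Ddx23). Among all 2438 listed genes 7.26% were separate in this way, 1.93% as higher and 5.33% as lower. These were 47 of the 1150 genes listed higher and 130 of the 1288 listed lower. In 26 of the 28 higher members (Rbmx and Srsf6 were the exceptions) at least 4 of the 7 KO libraries lay above the highest flox library, as in 71.5% of all 1150 listed higher genes. In 4 of the 7 lower members at least 4 KO libraries lay below the lowest flox library, as in 73.9% of all 1288 listed lower genes, and Ddx54, Ddx6 and Hnrnpf were the exceptions.

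**Figure D1:**
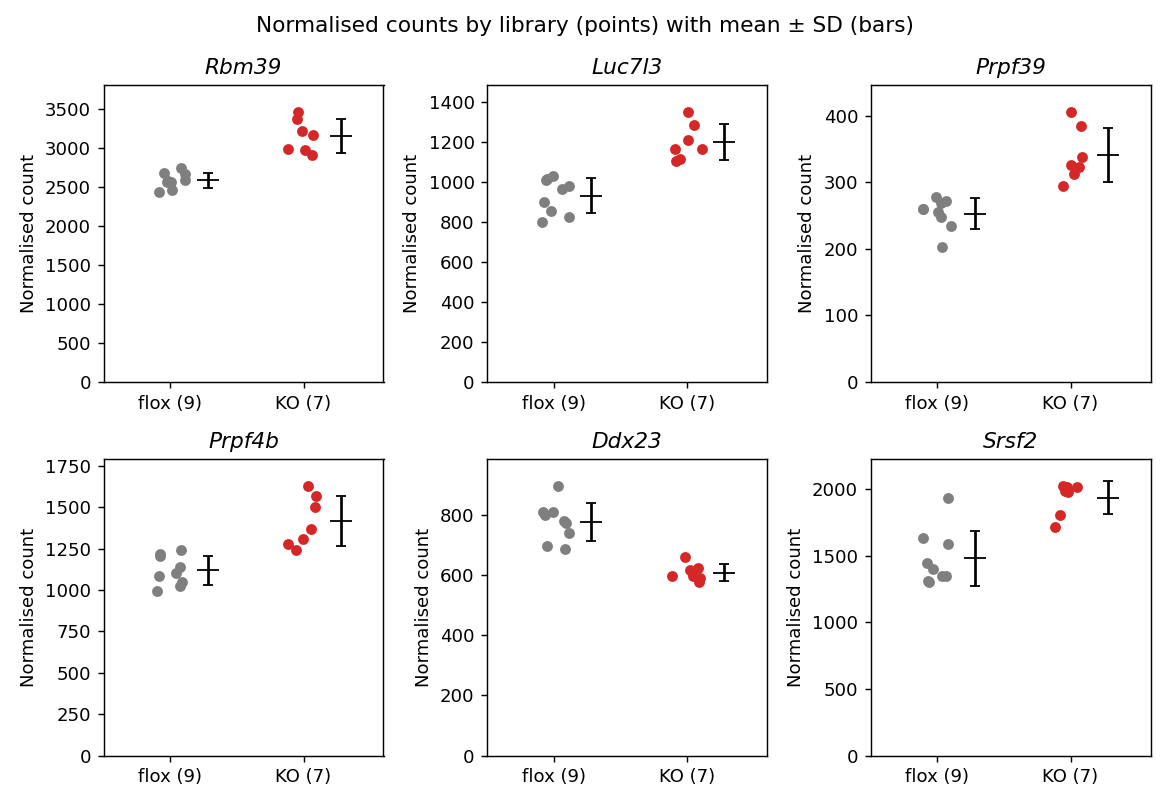
Normalised counts (vertical axes, starting at 0) of 6 genes in the 9 flox and 7 KO libraries, each point 1 library, with bars for mean ± SD. The groups do not overlap for Rbm39, Luc7l3, Prpf39, Prpf4b and Ddx23, while for Srsf2 flox replicate 7, at 1933, lies inside the KO range.

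Listed genes that act in early recognition of introns are described first. Their counts stand beside 14.8% of 16488 genes called by the authors, 6.97% as higher. Of listed genes with 40% to 45% GC, 89.7% were higher. Luc7l3 (11:94287890 to 94321988, GRCm38, minus strand), a U1-associated protein related to yeast Luc7, held 798 to 1029 normalised counts in flox (median 963) and 1104 to 1350.4 in KO (median 1167). Its log2 difference was 0.37 ± 0.07 (SE), with an adjusted p of 0.00919 in limma. Every KO library lay above every flox library.

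Prpf39 (12:65036333 to 65063386, plus strand), another U1-associated factor, ran from 202 to 277 in flox (median 259) and from 294 to 406 in KO (median 326). KO replicates 7 and 4 were highest and flox replicate 10 lowest. The log2 difference of Prpf39 was 0.43 ± 0.09 (SE), with an adjusted p of 0.0104 in limma.

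Luc7l2, a paralog of Luc7l3, ran from 1401 to 1905 in flox (median 1678) and from 1662 to 2488 in KO (median 2159). Its KO replicate 3 lay inside the flox range and the other 6 KO libraries above it. Rbm25, an RNA-binding protein that contacts U1 snRNP, ran from 1005 to 1279 in flox (median 1133) and from 1271 to 1588 in KO (median 1401), with 6 of 7 KO libraries above all flox libraries. Of the 13 genes on the list of U1 snRNP and 5′ splice site factors, 5 were listed, all higher. The one outside the 11 families was Tia1, a U-rich sequence binder that recruits U1, at 241 ± 21.1 (SD, n = 9) in flox and 341 ± 35.6 (SD, n = 7) in KO.

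Rbm39 (2:156147239 to 156180238, minus strand), a splicing factor related to U2AF2, ran from 2434 to 2738 normalised counts in flox (median 2575) and from 2903 to 3459.7 in KO (median 3168). It was the steadiest of the higher members among flox libraries, with a coefficient of variation of 3.81%. Its log2 difference was 0.28 ± 0.06 (SE), with a limma adjusted p of 0.0101, and in the authors' deposited table Rbm39 had the smallest adjusted p of all members, 1.26e-05.

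Of the 22 genes on the list for U2 snRNP, SF3 and U2AF, 4 were listed, all of them members and all higher. Snrpb2, the U2 snRNP B″ protein, ran from 139 to 226 in flox (median 179.9) and from 201 to 318 in KO (median 258), and 6 of 7 KO libraries exceeded all flox libraries. Sf3b1, the large SF3b subunit that holds the branch site, ran from 3485 to 4594 in flox (median 3832) and from 4016 to 5379 in KO (median 4749.5). These ranges overlapped, and Sf3b1 missed the limma threshold with an adjusted p of 0.0586.

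Sf3b3, another SF3b subunit, ran from 442 to 650.2 in flox (median 549) and from 604 to 845 in KO (median 664), with KO replicates 1 and 3 highest. Ddx46, the helicase that helps U2 snRNP onto the branch site, ran from 679.7 to 829 in flox (median 747) and from 796 to 941 in KO (median 845). Its log2 difference was 0.23 ± 0.06 (SE), and limma gave an adjusted p of 0.0298.

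Snrpd1, a core Sm protein shared by the major snRNPs other than U6, ran from 107 to 191 in flox (median 148) and from 170.1 to 331 in KO (median 236). It was 1.53-fold higher, and KO replicate 1 stood highest. Of 15 Sm and LSm genes 3 were listed, all higher, the others being Lsm3 (1.23-fold) and Lsm6 (1.31-fold). In the minor spliceosome, which removes a rare class of introns, Snrnp48 ran from 252 to 308 in flox (median 262) and from 286 to 407 in KO (median 358). Rnpc3 was the other listed gene among 11 of that list, at 1.36-fold higher. Rbm48, which in other systems acts with this machinery, was 1.61-fold higher, from 31.6 to 43.6 in flox (median 37.6) and from 42.9 to 71.4 in KO (median 62.5).

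Of the 12 spliceosome remodelling helicases, Ddx23 and Dhx38 were lower and Ddx46 was higher. Ddx23 (15:98645134 to 98662894, minus strand), which displaces U1 from the 5′ splice site, ran from 688 to 896 normalised counts in flox (median 779) and from 577 to 658 in KO (median 596). All 7 KO libraries lay below all flox libraries. Its log2 difference was -0.35 ± 0.06 (SE), with an adjusted p of 0.00695 in limma, the smallest among members.

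Dhx38, the helicase that remodels the spliceosome between the catalytic steps, ran from 769 to 959 in flox (median 855) and from 561 to 806 in KO (median 674), with 6 of 7 KO libraries below all flox libraries. Of the 15 annotated genes on the tri-snRNP list 2 were listed, both lower, Ddx23 and Sart1 (1.34-fold). None of the 19 genes of the Prp19 complex and its partners was listed.

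All 5 listed SR protein genes were higher. Srsf2, an exon-definition factor that binds exonic enhancers, ran from 1307 to 1933 in flox (median 1399) and from 1719 to 1989.7 and 2027 in KO for the lowest, median and highest library. Flox replicate 7 alone reached the KO range. Its log2 difference was 0.40 ± 0.08 (SE), with a limma adjusted p of 0.0106.

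Srsf1, a founding SR protein, ran from 1227 to 1675 in flox (median 1451) and from 1611 to 2171 in KO (median 1801). Srsf10, an SR protein that acts as a repressor when dephosphorylated, ran from 422 to 586 in flox (median 506) and from 574 to 811 in KO (median 668). In both genes KO replicate 1 was highest and 6 of 7 KO libraries lay above all flox libraries. Srsf11 ran from 1398 to 1605 in flox (median 1485) and from 1597 to 2379 in KO (median 1801), with KO replicates 7, 4 and 8 highest and KO replicates 3 and 1 lowest. Srsf6 ran from 1057 to 1752 in flox (median 1401) and from 1542 to 1959 in KO (median 1693), and only 3 KO libraries exceeded all flox libraries.

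Of the 25 annotated genes on the list of SR and SR-like proteins 8 were listed, 7 higher and 1 lower. Tra2a (1.30-fold) and Pnisr (1.35-fold) were the higher genes outside the 11 families, and Scaf1 was lower (1.24-fold). Kinases that phosphorylate SR proteins or the spliceosome were listed for 5 of 10 genes, 4 of them higher. Prpf4b (13:34875302 to 34906064, plus strand), a kinase of the spliceosome and the only member among them, ran from 997 to 1239 in flox (median 1105) and from 1245 to 1630.4 in KO (median 1367), with no overlap. Clk1, which phosphorylates SR proteins in the nucleus, was 1.28-fold higher, Clk4 1.19-fold and Srpk2 1.52-fold, while Cdk11b was 1.22-fold lower.

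The hnRNP genes divided. Hnrnpa3, an A/B-type protein, ran from 409 to 644 in flox (median 500.1) and from 602 to 799 in KO (median 683), and Hnrnph1, which binds runs of G, from 1327 to 1753 (median 1564) and from 1589.6 to 2342 (median 1852). Both were higher in KO and both overlapped. Hnrnpf, a close relative of Hnrnph1 that also binds runs of G, was lower, from 1845 to 2518 in flox (median 2222) and from 1723 to 2132 in KO (median 1968). Hnrnpf missed the limma threshold with an adjusted p of 0.0775, and Hnrnph1 passed it narrowly at 0.0498.

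Hnrnpul2, a scaffold-attachment type protein, ran from 3973 to 4902 in flox (median 4221) and from 3237 to 4245 in KO (median 3444), and 6 of 7 KO libraries lay below all flox libraries. Its relative Hnrnpul1 ran from 1335 to 1733 in flox (median 1589) and from 1111 to 1466 in KO (median 1317). Of the 35 genes on the hnRNP list 10 were listed, 5 in each direction. Outside the families, Matr3 (1.28-fold), Syncrip (1.29-fold) and Ptbp2 (1.45-fold) were higher, and Taf15 (1.37-fold) and Pcbp1 (1.17-fold) lower.

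Other RNA-binding motif genes were higher, with low counts in several. Rbm43 had the largest change of all members, from 24.3 to 71.6 normalised counts in flox (median 41.6) and from 68.2 to 103 in KO (median 78.0). Flox replicates 5 and 6 lay inside the KO range and the other 7 below it. Rbm4b, a paralog of the splicing regulator Rbm4, was 1.43-fold higher and Rbm26, a factor in nuclear RNA turnover, 1.23-fold. Rbm5, a regulator of apoptosis gene splicing, ran from 1129.9 to 1402 in flox (median 1279) and from 1296 to 1614 in KO (median 1498) and missed the limma threshold at an adjusted p of 0.0547.

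Rbms1, a single-stranded nucleic acid binding protein, had the largest spread of the members among KO libraries, with a coefficient of variation of 52.8%, against 15.6% in flox. It ran from 41.5 to 71.7 in flox (median 55.7) and from 29.9 to 175 in KO (median 84.7), with KO replicate 2 below every flox library and KO replicate 1 above all others. Its limma adjusted p was 0.363, against 0.0397 in the authors' deposited table. Rbmx, the X-linked hnRNP G gene, was 1.27-fold higher and Rbmxl1 1.51-fold. Rbmxl1 is a retrocopy of Rbmx, so reads could be split between them and both values are uncertain.

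On the list of tissue and context splicing regulators, 5 of 25 genes were listed, all higher, 2 of them the members Rbm39 and Rbm5. Qk, an RNA-binding protein abundant outside epithelium, was 2.65-fold higher, at 32.8 ± 18.5 (SD, n = 9) in flox and 86.7 ± 64.3 (SD, n = 7) in KO, and Celf2, which lymphocytes express, 2.04-fold, at 76.4 ± 36.5 (SD, n = 9) and 156 ± 84.1 (SD, n = 7). Mbnl1 was 1.31-fold higher. The epithelial splicing regulators Esrp1 and Esrp2 were on this list and were not among the listed genes.

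Helicases outside splicing were few. Ddx10 and Ddx54, both of ribosome assembly, were the only 2 of 17 listed on that list, in opposite directions. Ddx10 ran from 67.9 to 113 in flox (median 84.1) and from 88.6 to 155 in KO (median 114), and Ddx54 from 409.6 to 529.9 (median 478) and from 367 to 469.9 (median 415). Neither passed limma, with adjusted p of 0.0845 and 0.0542. Ddx6, a helicase of messenger RNA decay and P-bodies, ran from 2742 to 3424 in flox (median 3132) and from 2585 to 2827 in KO (median 2745), and its adjusted p in limma was 0.0637. On the list for translation, decay and RNA granules, Ddx6 and Skiv2l (1.21-fold) were listed of 13 annotated, both lower. None of 11 RNA-sensing helicases was listed, and of 15 exon junction and nonsense-mediated decay genes Magoh (1.30-fold) was higher and Upf1 (1.26-fold) lower.

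**Figure D2:**
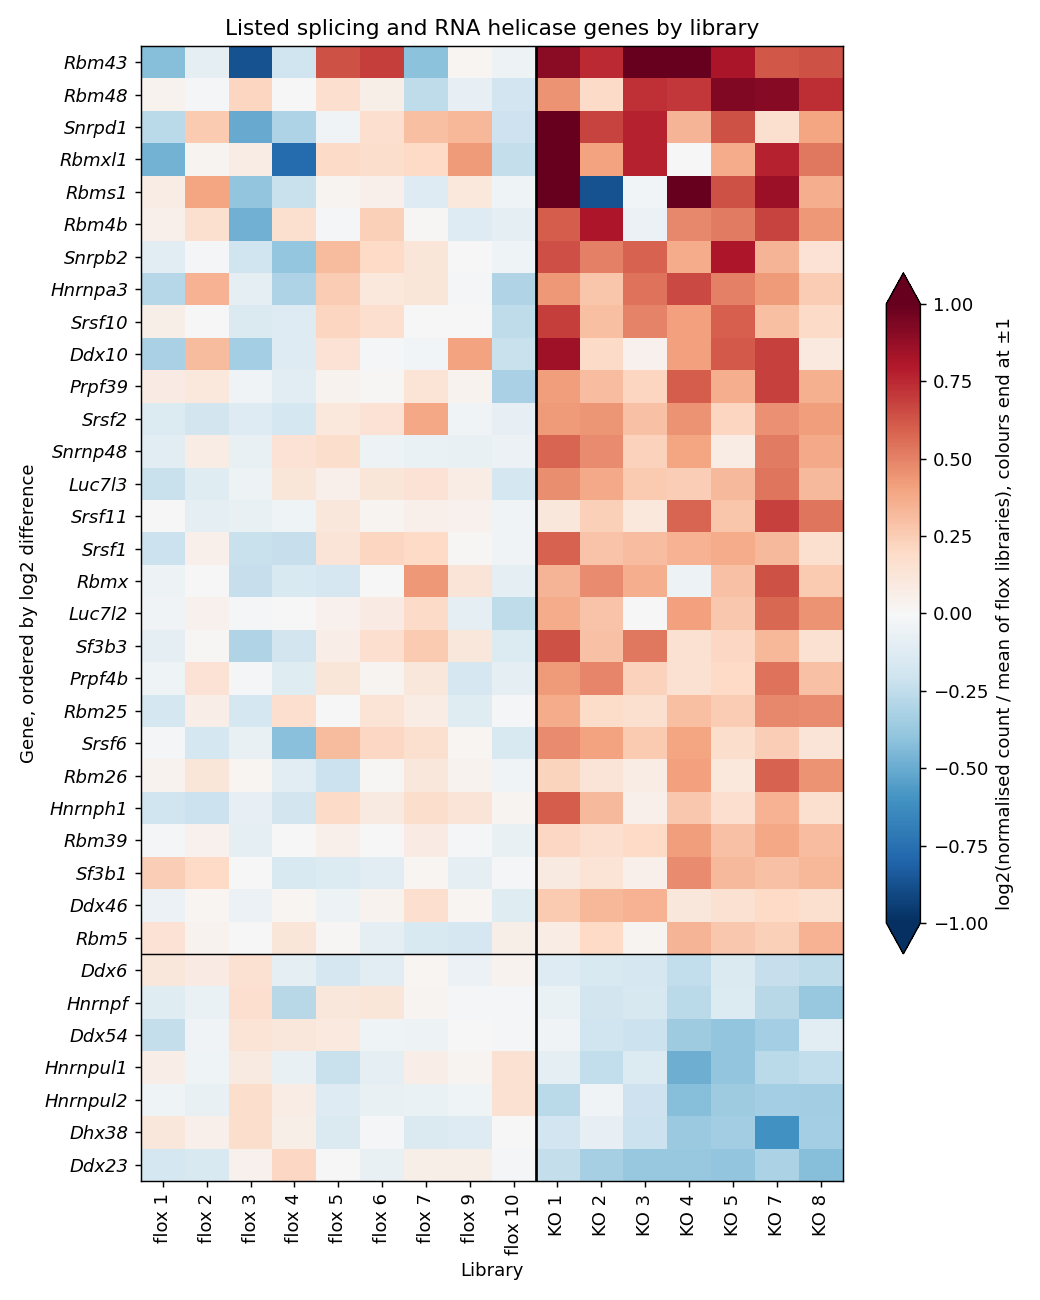
Each row is 1 of the 35 genes and each column 1 library; colour gives log2 of the normalised count over the mean of the flox libraries, ending at ±1. The upper 28 rows are mostly red across the 7 KO libraries and the lower 7 rows mostly blue, and Rbms1 is dark blue in KO replicate 2.

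Per kilobase of gene length, mean levels in flox spanned 9.96 normalised counts for Rbms1 to 759.7 for Hnrnpul2. Hnrnpul2, Hnrnpf (734), Srsf2 (501), Ddx6 (384), Rbm39 (372) and Sf3b1 (341) were the 6 highest in flox. In KO the order at the top changed to Srsf2 (655), Hnrnpf (636) and Hnrnpul2 (626), values that lie within the spread of the libraries of one another. Within flox, the coefficient of variation of the higher members ran from 3.81% to 36.0% (median 10.8%), and within KO from 6.30% to 52.8% (median 12.4%). For the lower members the medians were 7.82% and 9.27%.

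Among the KO libraries, the higher members did not all peak together. KO replicate 1 was the highest KO library for 10 of the 28 and KO replicate 7 for 9, while KO replicate 3 was the lowest for 10. KO replicate 1 led for Snrpd1, Sf3b3, Srsf1, Srsf6 and Srsf10, and KO replicate 7 for Luc7l2, Luc7l3, Prpf39, Rbm25, Rbm26 and Srsf11. For the lower members KO replicate 1 was the highest KO library in 5 of 7, and flox replicate 3 the highest flox library in 5 of 7.

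In limma on log2(normalised count + 1), 24 of the 28 higher and 4 of the 7 lower members passed an adjusted p under 0.05. Of the 2339 listed genes tested, limma called 54.3%, 19.2% higher and 35.1% lower, and 98.6% had an unadjusted p under 0.05, as 34 of 35 members did. These shares, and those below, are of all tested genes whatever their direction, on which base the members were 24 and 4 of 35. As counts, limma called 449 genes higher and 820 lower, and the authors had listed 1150 higher and 1288 lower before the filter on low values. Since every one of these genes had been called by the authors on the same libraries, the counts are no separate support. The median log2 difference was 0.37 over the higher members and -0.26 over the lower ones. TMM scaling over the listed genes shifted the median of all genes tested by 0.13. TMM takes most genes as unchanged, while all of these had been called as changed, so this scaling is itself uncertain. Under TMM 26 higher and 1 lower members passed, beside 29.6% and 10.2% of all genes tested. edgeR on reads recovered from the table called 24 higher and 4 lower members, beside 21.1% and 35.1% of the genes tested. In DESeq2 on those reads the members were 27 and 7, and all genes 37.3% and 53.0%. In edgeR without KO replicates 1 and 3 the members were 15 and 2, and all genes 5.77% and 10.2%. The number of lower members that passed was 1 without KO replicate 5 or KO replicate 7 and 2 without flox replicate 3. For these fits the share of all genes tested was not counted.

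**Figure D3:**
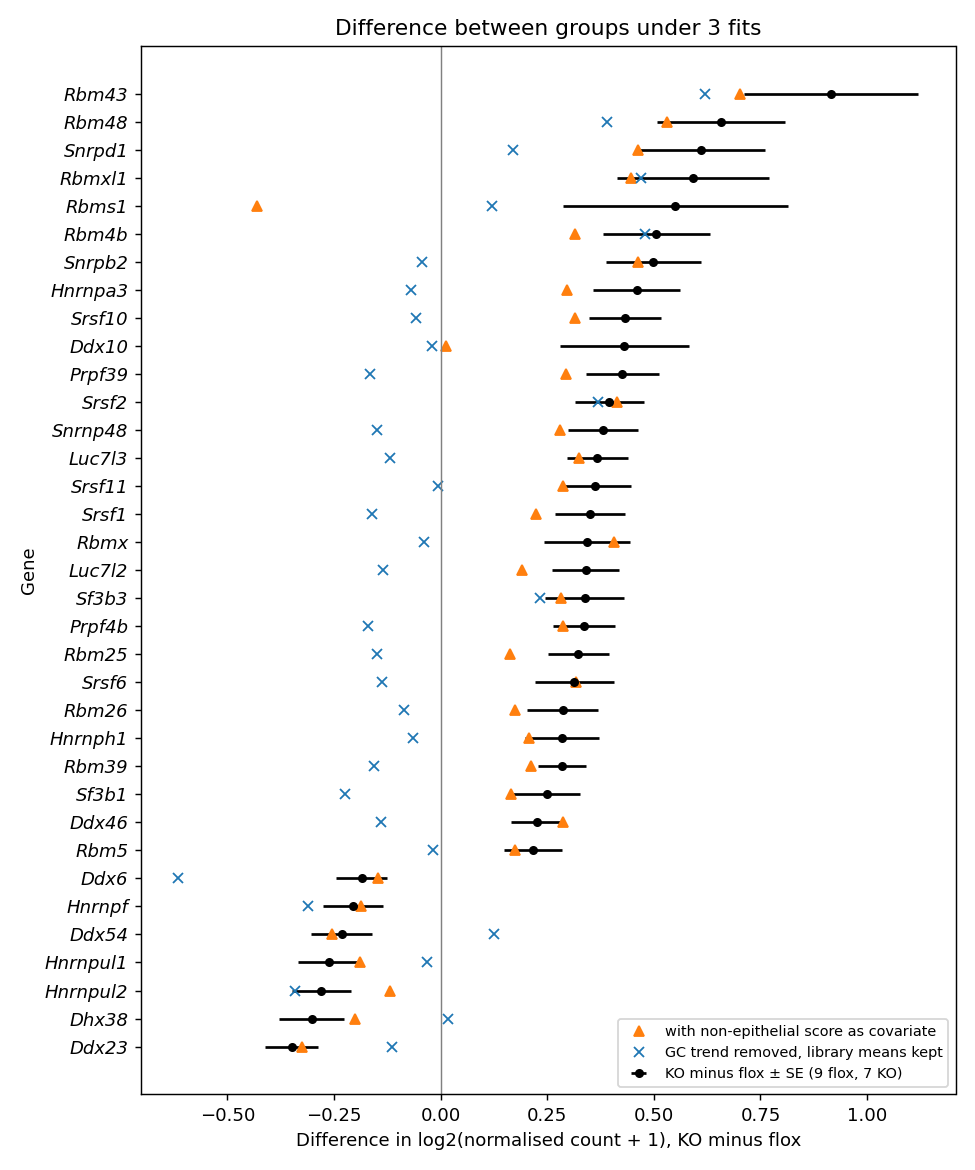
Points give the difference in log2(normalised count + 1), KO minus flox, with SE bars from 9 flox and 7 KO libraries, for each of the 35 genes (vertical axis). Triangles give it when the non-epithelial score is a covariate, where only Rbms1 changes side, and crosses after removal of the GC trend with library means kept, where 22 genes change side.

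Abundance and base composition moved with direction across the table. From a mean of 1000 normalised counts upward, 12 members were higher and 4 lower, beside 56 higher and 712 lower of the whole table. At 200 to 1000 counts the members were 9 and 3 and all listed genes 231 and 448. The 21 higher members with a mean of at least 200 had a median of 0.34 (log2 fold change, authors' deposited table), and the 287 listed genes of that kind 0.37. Among the 7 lower members it was -0.26, and among 1160 such listed genes -0.36.

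The longest protein-coding transcripts of the higher members held a median of 43.1% G and C (range 37.0% to 49.97%), and those of the lower members 54.0% (range 43.4% to 59.0%). In listed genes with 40% to 45% GC, 89.7% were higher, with a median log2 difference of 0.54, and 14 of 15 members there were higher, with a median of 0.34. Ddx6, at 43.4%, was the exception. From 45% to 50%, 66.7% of listed genes and 10 of 12 members were higher. At 55% and above 10.6% of listed genes were higher, and both members there, Ddx54 and Dhx38, were lower. When the GC trend of each library over the listed genes was removed with library means kept, 22 of the 35 members changed sign, the median of the higher members became -0.06, and 1 higher and 3 lower members passed limma, beside 3.08% and 7.95% of all genes tested. With library means removed as well, 2 and 3 members passed, beside 3.42% and 6.46%. The trend was fitted on genes that had been selected for a difference, so it takes out part of any change that genes of like composition share. With library means kept, Srsf2 (0.37), Rbm4b (0.48), Rbm43 (0.62), Rbm48 (0.39), Rbmxl1 (0.47), Sf3b3 (0.23), Snrpd1 (0.17) and Rbms1 (0.12) were still higher. Of the lower members, Ddx6 (-0.62), Hnrnpul2 (-0.34) and Hnrnpf (-0.31) had larger differences in size than before the removal. Those of Ddx23 (-0.11) and Hnrnpul1 (-0.03) were smaller in size, and Ddx54 and Dhx38 changed sign.

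**Figure D4:**
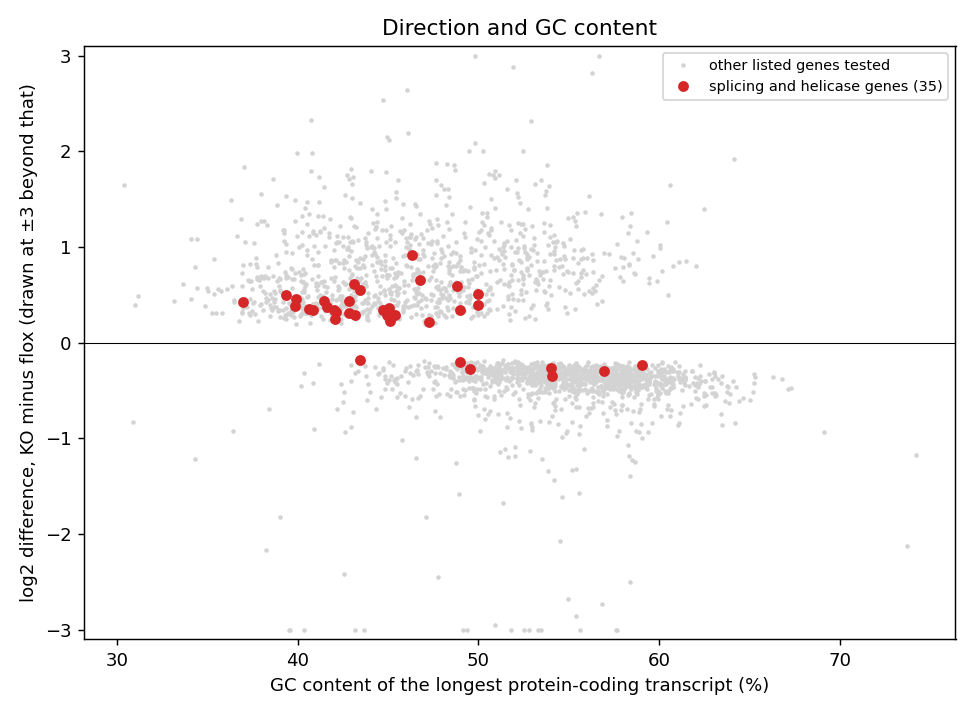
GC content in percent (horizontal axis) against the log2 difference, KO minus flox (vertical axis). Listed genes tested are in grey and the 35 splicing and helicase genes in red. GC content is that of the longest protein-coding transcript, or of the longest transcript where a gene has no protein-coding one. Grey points lie mostly above 0 below 45% and mostly below 0 above 55%, and the red points lie among them at small differences.

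Annotated transcripts offered another feature. Of the 28 higher members, 15 (53.6%) had at least 1 transcript annotated as a target of nonsense-mediated decay and 20 (71.4%) 1 with a retained intron. Among all 1014 listed protein-coding genes that were higher, these shares were 32.8% and 65.6%. Among the 271 of them with a mean of at least 200, they were 41.3% and 73.4%. Only 21 of the 28 higher members had such a mean. None of the 7 lower members had an annotated decay transcript and 6 had a retained-intron transcript, beside 23.8% and 55.8% of the 1147 listed lower protein-coding genes with such a mean. Rbm39 had 8 annotated decay transcripts among 25, and Rbm5 had 13 with a retained intron among 24. The deposited counts do not show which transcripts were present.

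Markers of other cells moved with the groups. Of 68 markers of B and plasma cells, T and NK cells, leukocytes, stroma and endothelium, 15 were listed, all higher in KO, and 1 of these, Lum, was at 0 in some libraries. Their mean log2 level, the non-epithelial score, ran from 4.89 to 6.24 in flox (median 5.32) and from 5.49 to 7.32 in KO (median 6.68). The sum of the 6 listed markers of T and NK cells (of 21) ran from 191 to 453 normalised counts in flox and from 282 to 709 in KO. That of the 5 listed leukocyte and myeloid markers (of 14) ran from 789 to 2204 and from 989 to 3133, and that of the 3 listed stromal and endothelial markers (of 18) from 20.9 to 182 and from 46.3 to 744. Mzb1, the only listed gene of 15 B and plasma cell markers, ran from 34.2 to 157 and from 58.4 to 416. All genes of this score were listed as higher in KO on these libraries. As a covariate it therefore takes out part of any difference between the groups. With this score as a covariate 0 members passed limma in either direction, beside 0.128% of all genes as higher and 0.171% as lower. An unadjusted p under 0.05 was found for 17 members, beside 25.7% of all genes, and the medians were 0.29 and -0.19. Rbms1 changed sign, to -0.43, and Ddx10 came to 0.01. The part of these cells in the members' differences was not tested.

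Of 25 markers of proliferating cells 17 were listed, all higher in KO, and their summed level ran from 1112 to 3653 in flox and from 2824 to 6148 in KO. Their mean log2 level ran from 5.75 to 7.43 in flox and from 7.02 to 8.18 in KO. This proliferation score too rests on genes listed as higher in KO, so as a covariate it takes out part of any group difference. With it as a covariate 1 higher and 0 lower members passed limma, beside 0.171% and 0.214% of all genes. An unadjusted p under 0.05 was found for 22 members, beside 41.9% of all genes, and the medians were 0.28 and -0.27. The log2 difference was smaller in size than without the covariate for 22 of the 28 higher and 3 of the 7 lower members, and larger for the other 6 and 4. The range among the higher members went from 0.05 for Sf3b3 to 0.75 for Rbm48, while Rbm5 came to 0.39 and Sf3b1 to 0.38. Mature enterocyte markers, listed for 8 of 15 genes and all lower in KO, had a summed level from 582118 to 818168 in flox and from 368820 to 613249 in KO. In bulk tissue, fewer cells of a type and less RNA per cell cannot be told apart.

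**Figure D5:**
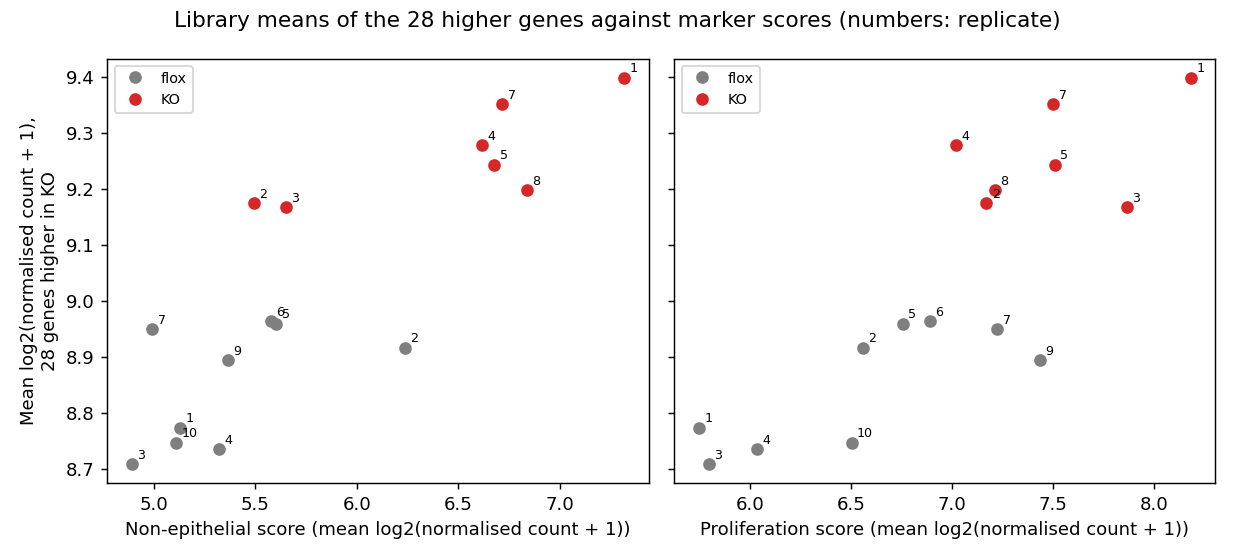
Each point is 1 library, labelled by its replicate number; the vertical axis is the mean log2(normalised count + 1) of the 28 higher genes and the horizontal axes are the non-epithelial and the proliferation score on the same scale. The 28 genes and the genes of both scores were listed as higher in KO on these libraries. This selection builds in the separation on the vertical axis and a shift towards higher scores in KO. Both scores still overlap between the groups.

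Transcripts of exocrine pancreas set some flox libraries apart. The summed level of 23 listed pancreatic genes ran from 7335 to 145242 normalised counts in flox replicates 4, 6, 7, 9 and 10, and from 392 to 518 in the other 4 flox libraries. It ran from 384 to 1797 in KO. The mean log2 level of the 28 higher members was 8.86 ± 0.11 (SD, n = 5) in the flox libraries with these transcripts and 8.84 ± 0.12 (SD, n = 4) in those without. Without the 5 libraries the medians were 0.39 and -0.24, and 0 members passed limma, beside 0.214% of all genes as higher and 0.257% as lower. An unadjusted p under 0.05 was found for 32 members, beside 72.8% of all genes.

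Overlapping genes limit some values, since neither labels nor files say whether the counting used strand. Exons of 11 members overlap exons of a gene on the opposite strand in GENCODE M21, among them Srsf2 (Mettl23 and Mfsd11), Prpf39 (Fkbp3, 599 bases), Luc7l2 (a long non-coding RNA, 2284 bases) and Rbm4b (3069 bases). Reads from such a pair cannot be told apart without strand. Exons of 4 members overlap a gene on the same strand, among them Hnrnpul2 (360 bases) and Rbm26 (413 bases). Strand would not separate the reads of those pairs.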

How the data were processed

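The 9 flox and 7 KO RNA sequencing libraries were grouped by their titles. The submitters' processing notes name DESeq2 1.20.0, HISAT2 2.0.5 and featureCounts 1.5.0-p3 and the build GRCm38 (mm10) without their settings. The deposited signal is, by its values, each gene's reads over a size factor of the library. Multiplied by that factor, 100% of values in every library came within 0.0001 of a whole read, although an automatic check could not test KO replicates 1 and 3. The deposited log2 fold change, p-value and adjusted p-value are those of the authors, whose adjustment ran over 16488 genes.

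limma 3.58.1 (trend, robust) was fitted to log2(normalised count + 1) of 2339 genes (mean 10 or higher) in all 16 libraries, with 9 against 7. Benjamini-Hochberg adjustment of its two-sided p-values ran over 16488 genes, unlisted genes taken at a p of 1. Fold changes on this scale understate the change of low genes. edgeR 4.0.16 and DESeq2 1.42.0 were run on the recovered reads. All 3 tools were also run on simulated data, where the check required only changes larger than those of the members to be called. It does not speak for changes of the members' size. Genes are named by rule: Ephb4, the 10 largest rises and falls, the largest change and highest level per kilobase in each family, members without overlap, and listed genes of the pathway lists. Others are named after their values were seen. The members and lists were chosen with earlier results of these data known. Within groups no pair of libraries looked duplicated (chi-square over degrees of freedom at least 16.1). GC content came from GENCODE M21 transcripts, for 2437 of 2438 genes, and promoters from RefSeq (GRCm38.p6). For GC content the longest protein-coding transcript was used, or the longest of any type where a gene had no protein-coding one. One window per gene was used, the one nearest the annotated start.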

Additional observations from a re-analysis of the deposited data

Results flagged for a closer look

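A library far from the rest of its group was looked for in 72 sets of values, the 35 members and Ephb4 in each group, and 3 were found. Chance alone would give about 1 in 20. In flox replicate 7, Ddx46 was at 829 normalised counts, with the next flox library at 754, and Rbmx was at 515, with the next at 418. In KO replicate 1, Ephb4 was at 84.7 normalised counts, with the next KO library at 37.3.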

How the results depend on the processing

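The counts of members passing limma (24 higher, 4 lower) were 24 and 4 with a pseudocount of 0.5 or 5, without the filter and in edgeR on recovered reads. DESeq2 on recovered reads called 27 higher and 7 lower, nearly repeating the authors' selection. Leaving out 1 library at a time gave 16 to 23 higher and 1 to 5 lower members, medians of 0.35 to 0.40 and -0.29 to -0.23, no change of sign, and Ephb4 differences of -2.73 to -2.40. The share of all genes tested was not counted for these fits or for those with another pseudocount or without the filter. With TMM 1 lower member passed, and the medians were 0.49 and -0.13. In edgeR without KO replicates 1 and 3, chosen after seeing the data, 15 higher and 2 lower members passed, against 24 and 4 in all libraries. With the non-epithelial score as covariate 0 and 0 passed. The proliferation covariate, the removal of libraries with pancreatic transcripts and both GC settings were also chosen after seeing the data. With the proliferation score as covariate 1 and 0 passed, and without the 5 flox libraries with pancreatic transcripts 0 and 0. The smallest adjusted p among members in limma was 0.988, 0.0495 and 0.0527 in these 3 settings, and 0.00695 in all libraries.

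Replicate numbers 1 to 5 and 7 occurred in both groups, but the labels do not say that a number marks a shared litter or day. The correlation of same-numbered deviations ran from -0.43 to 0.37, so the numbers were not taken to pair the samples. A fit with the replicate number as a block, over those 12 libraries, called 0 higher and 0 lower members, with medians of 0.39 and -0.26 and 31 members at an unadjusted p under 0.05. The share of all genes tested that passed was not counted for this fit. Its member counts therefore cannot be told from a loss over the whole set of genes.

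With the GC trend removed, 2 higher members passed, and the medians were -0.039 and -0.092. With library means kept, 1 higher member passed, and the medians were -0.062 and -0.11. Log2 differences that changed sign were, with the trend removed, Ddx46 -0.12, Ddx54 0.15, Dhx38 0.041, Hnrnpa3 -0.047, Hnrnph1 -0.042, Luc7l2 -0.11, Luc7l3 -0.095, Prpf39 -0.14, Prpf4b -0.15, Rbm25 -0.13, Rbm26 -0.063, Rbm39 -0.13, Rbmx -0.017, Sf3b1 -0.20, Snrnp48 -0.13, Snrpb2 -0.020, Srsf1 -0.14, Srsf10 -0.035 and Srsf6 -0.11. With library means kept they were Ddx10 -0.019, Ddx46 -0.14, Ddx54 0.12, Dhx38 0.018, Hnrnpa3 -0.071, Hnrnph1 -0.065, Luc7l2 -0.14, Luc7l3 -0.12, Prpf39 -0.17, Prpf4b -0.17, Rbm25 -0.15, Rbm26 -0.086, Rbm39 -0.16, Rbm5 -0.017, Rbmx -0.040, Sf3b1 -0.22, Snrnp48 -0.15, Snrpb2 -0.044, Srsf1 -0.16, Srsf10 -0.059, Srsf11 -0.0056 and Srsf6 -0.14. With the non-epithelial covariate Rbms1 came to -0.43. Why these settings move the values beyond their construction was not tested.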
